A study of Mus musculus with 12 samples.

Results

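The genes described here are 34 members of the Hippo pathway, of 25777 genes with a value in the deposited files. They comprise 22 pathway components and 12 genes whose transcription the pathway's output factors are known to drive. The members were chosen by name as a pathway list, with earlier results of these data known, and the CCN genes were not included. Shares of members set beside those of all genes therefore describe this list only. Each library's value for a member is its gene level in TPM (a share of all transcripts in the library, corrected for transcript length), and 33 members passed a filter of at least 1 TPM in at least 3 libraries. Fjx1, a four-jointed homologue listed as a target, did not pass: it stood between 0.141 and 0.861 TPM in the 12 libraries.

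The Hippo pathway is a kinase cascade that restrains a pair of transcriptional coactivators, YAP (Yap1) and TAZ (Wwtr1). The kinases MST1 and MST2 act with the scaffold Sav1 on the kinases LATS1 and LATS2, which with their MOB1 partners phosphorylate YAP and TAZ and keep them out of the nucleus; cytoskeletal tension, cell density and the membrane proteins merlin and angiomotin feed into this step. In the nucleus YAP and TAZ bind TEAD factors, which read a short DNA core, and in skeletal myoblasts active YAP is known to favour proliferation over differentiation.

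The series measured poly(A)-selected RNA from C2C12 cells, an immortalised mouse skeletal myoblast line, in 4 groups of 3 libraries. Undifferentiated myoblasts (D0) grew below confluence in medium with 10% fetal bovine serum, and differentiating cells (D2) were moved to 2% horse serum 24 h after siRNA. At each stage the cells received either a non-targeting siRNA (siControl) or 1 siRNA against Kctd10 (siKctd10), a BTB-domain adaptor of CUL3 ubiquitin ligases, so no group separates loss of Kctd10 from other effects of that single siRNA. The treatment is stated as 48 h of siRNA before harvest for every sample, which leaves the time in differentiation medium of the D2 cells unclear. The labels do not say whether replicates were separate cultures, so p-values measure the spread between these libraries, and an exact permutation test of 3 against 3 libraries cannot go below p = 0.1.

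The deposited coverage corresponded to an estimated 12510887 to 18082111 read pairs per library. Kctd10 stood at 272, 258 and 269 TPM in D0 siControl and at 24.8, 24.5 and 20 TPM in D0 siKctd10, and at 285, 276 and 289 against 34.3, 26.8 and 35.1 TPM at D2. The 2 siKctd10 libraries numbered 3 stood apart from the other siKctd10 libraries on the second principal component of all genes (both at -42.4, against -1.2 to -20.3), and the counts of called members are given with and without them. Of the 5 skeletal myoblast markers, 5 were present at 1 TPM or more, and their summed level was 536 to 541 TPM in D0 siControl and 524 to 670 TPM in D0 siKctd10, and 1985 to 2101 TPM in D2 siControl and 1488 to 1821 TPM in D2 siKctd10, where the groups did not overlap. Adipoq, Plin1 and Fabp4 (adipocyte), Bglap and Ibsp (osteoblast), Ptprc and Adgre1 (macrophage), Kdr (endothelial) and Snap25 (neural) were listed at 0 in all 12 libraries. Other markers of the same lists were present. Cebpa stood at 10.5 to 26 TPM and Pparg at 4.4 to 19.8 TPM (adipocyte), and Runx2 at 23.1 to 61.4 TPM (osteoblast). Among neural markers Tubb3 stood at 52.6 to 114 TPM and Map2 at 3.99 to 35.6 TPM, and Cd68 (macrophage) at 0.786 to 2.32 TPM. The 5 smooth muscle markers, 4 of them present, summed to 640 to 723 TPM in D0 siControl and 1594 to 1868 TPM in D0 siKctd10, and to 1372 to 1698 and 2472 to 3145 TPM at D2, mostly Acta2, while Myh11 did not exceed 0.0369 TPM. The summed level of the 5 neural markers was lower with siKctd10 at D0 (107 to 116 against 57.9 to 62 TPM) and at D2 (120 to 149 against 92.7 to 110 TPM). At D2 the adipocyte sum was higher (15.9 to 18.5 against 29.7 to 30.7 TPM), as was the macrophage sum (0.872 to 1.3 against 1.43 to 2.16 TPM). The sum of 7 mitochondrially encoded genes, taken as a sign of RNA quality, was lower with siKctd10 at D0 (87995 to 93003 against 67991 to 83249 TPM) and overlapped at D2. The osteoblast and endothelial sums overlapped on both days. The sums that did not overlap moved with siKctd10, up or down as given, and their part in the members' values was not tested.

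The promoters of the members that passed the test for siKctd10 on both days, as given below, are shown first, because TEAD factors read the core GGAATG. Both strands were searched, so a match on the opposite strand reads CATTCC. The sequences are the 250 bases before the annotated start, on the gene's strand, from RefSeq on GRCm38.p6, and the core is in capitals. The windows are chr19:36119845-36120094 (minus strand) for Ankrd1, chr17:78199998-78200247 (plus strand) for Crim1 and chr9:8004597-8004846 (minus strand) for Yap1. For Lats2 only the 30 bases around its core, which lies 5 bases past the start of 1 of its 2 annotated starts, are printed (chr14:57746102-57746131, minus strand).
Ankrd1: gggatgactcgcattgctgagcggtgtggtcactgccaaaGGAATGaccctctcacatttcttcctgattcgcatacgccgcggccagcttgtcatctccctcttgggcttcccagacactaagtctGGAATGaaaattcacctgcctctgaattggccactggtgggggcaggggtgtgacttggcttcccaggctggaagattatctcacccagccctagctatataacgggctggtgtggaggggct
Crim1: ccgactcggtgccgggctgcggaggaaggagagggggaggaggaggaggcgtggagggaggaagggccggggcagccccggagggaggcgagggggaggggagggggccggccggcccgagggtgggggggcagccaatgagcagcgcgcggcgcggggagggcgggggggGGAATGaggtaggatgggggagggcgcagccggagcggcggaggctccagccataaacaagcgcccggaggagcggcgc
Yap1: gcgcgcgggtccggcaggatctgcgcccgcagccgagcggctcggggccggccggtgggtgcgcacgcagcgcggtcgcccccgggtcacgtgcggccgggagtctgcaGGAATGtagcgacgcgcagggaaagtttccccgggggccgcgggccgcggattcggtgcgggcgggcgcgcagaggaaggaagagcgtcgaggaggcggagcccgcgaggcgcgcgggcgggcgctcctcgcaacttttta
Lats2: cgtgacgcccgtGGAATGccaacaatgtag

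Ankrd1 held 2 cores, 210 and 123 bases before the start, and Crim1 and Yap1 held 1 each, 79 and 141 bases before it. Of the 34 members, 28 had a promoter window of 300 bases (250 before and 50 after the start), and 14 of these held the core on either strand in at least 1 window. Over the 27025 genes with a window, 16.6% held it in at least 1 window. Counted by window, 16 of 34 member windows (47.1%) held it, against 4817 of 32851 windows of the same length over all genes (14.7%). The 2 windows of Wwtr1 overlap and hold the same core, which is counted in both. The core was found in 11 of the 19 components with a window and in 3 of the 9 targets. Of the members called for siKctd10 on either day, 6 of 10 with a window held it, and of the members called on neither day 8 of 18. A match of 6 letters is a description of the sequence and not a binding site.

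**Figure D1:**
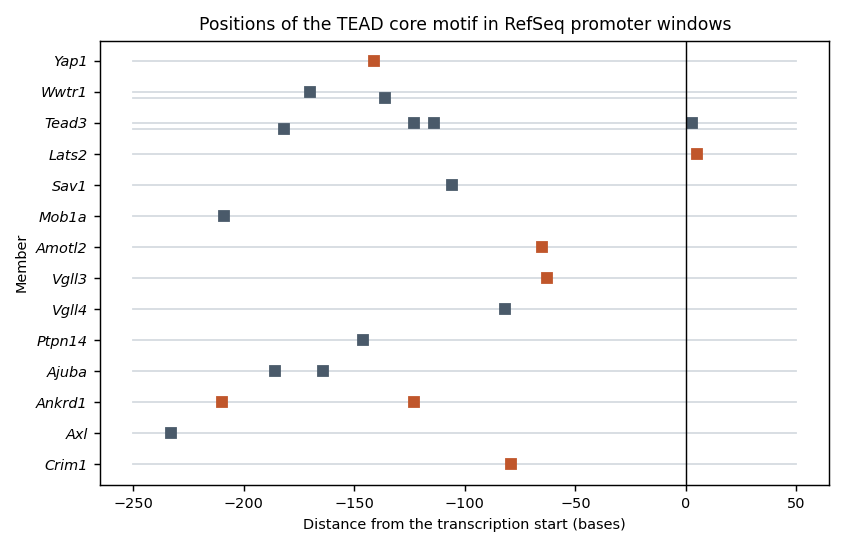
Each row is 1 member with at least 1 core match, and the x axis gives the distance in bases from the annotated transcription start. Grey lines are the 300-base windows (1 line per annotated start that held a core), squares are core matches on either strand, and orange squares mark members called for siKctd10 on either day. Except for matches just past the start in Lats2 and in 1 Tead3 window, every match lies before the start.

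The siRNA itself was also searched for. Its target in Kctd10, present in 7 annotated Kctd10 transcripts, is shown here with the bases that pair with guide positions 2 to 8 in capitals, because short matches to that seed in other transcripts can be bound too.
Kctd10 target: ccagcaattctGACGATAa
Of the 34 members, all of which have an annotated 3′ untranslated region, 0 held the 7-base seed match GACGATA and 1 held the 6-base match ACGATA. Over 21020 genes these shares were 0.78% and 3.84%. The 1 member was Ptpn14, a phosphatase that binds YAP, with the match in capitals in the 30 bases below.
Ptpn14: gagccgcagatACGATActagggaggctgg

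At D0, before differentiation, siKctd10 raised 6 of the 33 tested members and lowered none (limma, Benjamini-Hochberg adjusted p under 0.05 over 13078 genes). They were the coactivator Yap1, the kinase Lats2, the TEAD cofactor Vgll3 and the targets Ankrd1, Crim1 and Gadd45b. Over all genes 2.45% were called, 1.48% higher and 0.963% lower, against 18.2% of the members. The median log2 fold change was 0.47 over the members and 0.05 over all genes. Every siKctd10 library exceeded every siControl library for 16 members (48.5%, against 14.4% of all genes), and the reverse held for 0 members (8.79% of all genes). By class, 3 of 22 components (13.6%) and 3 of 11 targets (27.3%) were called, with median log2 fold changes of 0.4 and 0.58. All siKctd10 libraries were higher for 45.5% of the components and 54.5% of the targets. The difference between the classes was not tested on either day. Of the members, 30 had a positive fold change, and 26 to 28 did under median-ratio scaling, quantile normalization, FPKM or voom. Those settings moved the share of higher calls among all genes from 60.6% to between 42 and 47.6%. When any 1 of the 6 D0 libraries was left out, fewer members were called: 1 without siControl replicate 1 and 3 without each of the other 5. Of the members 2 (Ankrd1 and Axl) were called without both siKctd10 libraries numbered 3, 0 when only the D0 libraries were fitted, and 0 when each transcript's longest exon was left out of its value, a setting chosen after seeing the data.

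At D2, siKctd10 raised 9 of the 33 members and lowered none, against 4.75% of all genes called (2.83% higher and 1.92% lower). Yap1, Lats2, Ankrd1 and Crim1 were again among them, joined by the angiomotins Amot and Amotl2 and the targets Asap1, F3 and Foxf2. By class, 4 of 22 components (18.2%) and 5 of 11 targets (45.5%) were called, with median log2 fold changes of 0.22 and 0.58. All siKctd10 libraries were above all siControl libraries for 31.8% of the components and 81.8% of the targets. The 4 members shared between the days were 66.7% of the D0 calls and 44.4% of the D2 calls, and over all genes 124 shared calls were 38.8% and 20% of the calls of each day. The median log2 fold change of the members was 0.34, beside 0.08 for all genes, and 22 to 24 members had a positive fold change under the other scalings and units against 27. There the share of higher calls among all genes was 39.3 to 46.6%, against 59.6%. For 16 members the siKctd10 libraries lay above all siControl libraries (48.5%, against 18.5% of all genes), and for 1 member, Vgll2, they lay below them (3.03%, against 9.91%). Without 1 of the D2 libraries the count was 5 (siKctd10 replicate 1) or 3 (each of the other 5), and without D0 siControl replicate 1 it was 5. Without D2 siControl replicate 2 the 3 calls included a fall of Tead2. The count was 8 without both siKctd10 libraries numbered 3, 3 when only the D2 libraries were fitted, 4 under median-ratio scaling, 5 with FPKM or voom, and 0 without each transcript's longest exon.

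**Figure D2:**
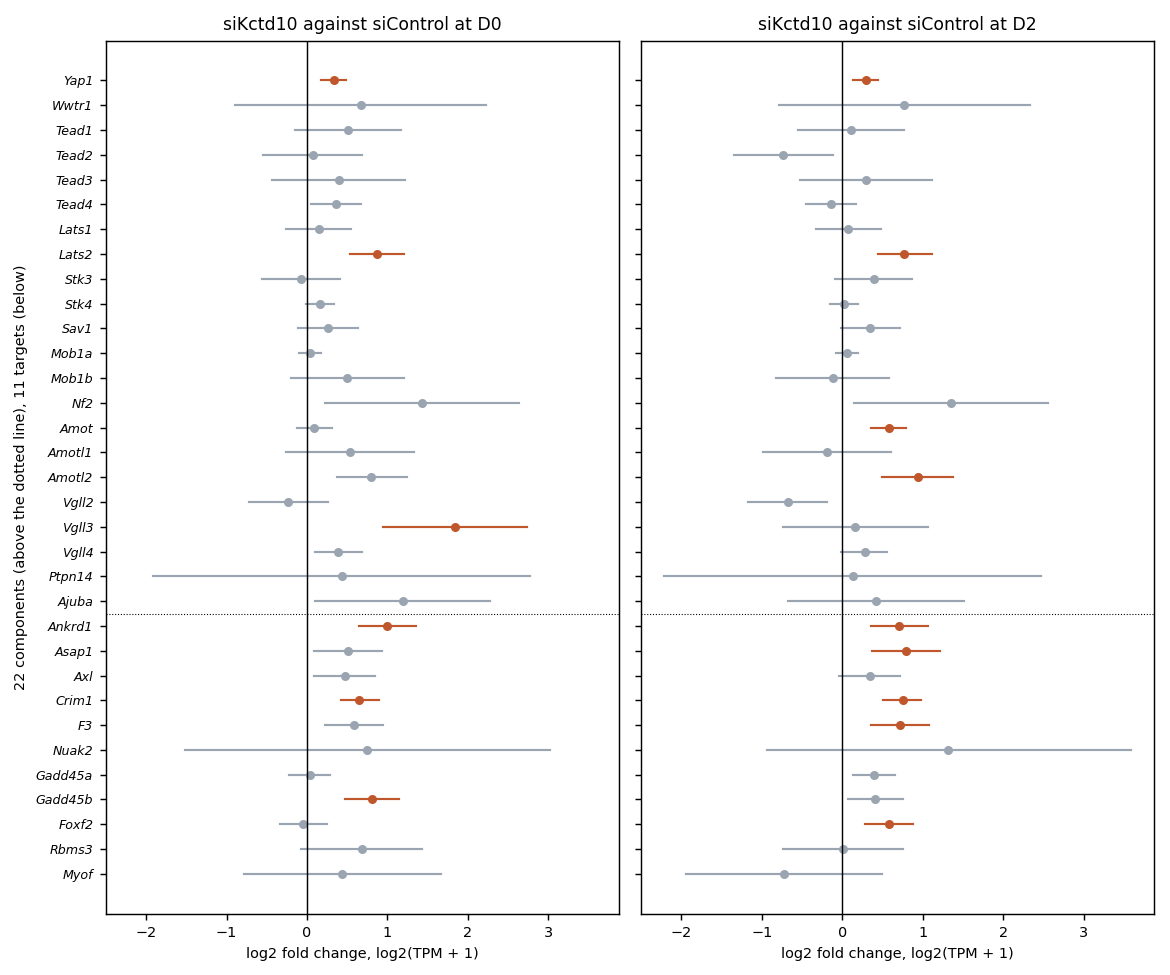
Log2 fold changes of siKctd10 against siControl for the 33 tested members at D0 (left) and D2 (right), with lines for the 95% confidence intervals of limma. Orange marks the 6 members called at D0 and the 9 called at D2, all to the right of 0. The widest intervals are those of Ptpn14 and Nuak2.

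Among the coactivators, Yap1 (chr9:7931999-8004596, minus strand, mm10 here and below) was higher with siKctd10 on both days by a modest amount. Its level was 124, 135 and 140 TPM in D0 siControl and 161, 179 and 166 TPM in D0 siKctd10. At D2 the siControl libraries held 114, 121 and 119 TPM and the siKctd10 libraries 140, 146 and 149 TPM. The groups did not overlap on either day, although the lowest D2 siKctd10 library and the highest D0 siControl library were both at 140 TPM. The log2 fold changes were 0.34 ± 0.07 (SE, limma adjusted p = 0.039) at D0 and 0.29 ± 0.07 (limma adjusted p = 0.045) at D2. The call was held in 7 of 26 alternatives at D0 and 8 of 26 at D2. Of the 12 fits with 1 library left out, 0 called Yap1 at D0 and 2 at D2. With the longest exon, the 2732-base last exon, left out the D2 value was -0.09 (limma adjusted p = 0.97). The coverage of that exon, put on the TPM scale of its library, had a mean of 171 in siControl and 212 in siKctd10 at D2. The means of the 482-base first exon were 14.3 and 14.7 there. At D0 the last exon was at 180 to 196 against 236 to 250, and the first exon at 14.3 to 23.2 against 11.7 to 23.4.

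The coactivator Wwtr1 passed the test on neither day, and its deposited level dropped in 1 library of each siControl group. It stood at 45.2, 8.75 and 46.9 TPM in D0 siControl and at 63.2, 12.5 and 65.2 TPM in D2 siControl, with replicate 2 low both times. The siKctd10 libraries held 41.5 to 44.2 TPM at D0 and 59.8 to 67.6 TPM at D2. In the low libraries the 3467-base last exon carried a coverage of 0.00762 and 0.0106, against 42.9 to 75.7 in the other 10, while the 435-base second exon lay between 55.7 and 124 in all 12. The log2 fold changes, 0.67 (95% interval -0.89 to 2.23) at D0 and 0.77 (-0.79 to 2.33) at D2, therefore rest on a drop of 1 exon in 1 control library each.

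None of the 4 TEAD factors passed the test for siKctd10 on either day. Tead1 had the highest level of the 4, 69.5 to 158 TPM over the 12 libraries, followed by Tead2 (20.9 to 67.1 TPM), Tead4 (12.4 to 19.4 TPM) and Tead3 (3.14 to 17.7 TPM), and of neighbours in that order only Tead4 and Tead3 had ranges that overlapped. Tead4 was above every siControl library at D0 (12.4 to 14.6 against 16.6 to 19 TPM) with a log2 fold change of 0.36 (limma adjusted p = 0.24). At D2 Tead2 stood at 66, 34.1 and 67.1 TPM in siControl and at 27.5, 35.2 and 33.1 TPM in siKctd10. Replicate 2 of siControl lay within the siKctd10 range, and the log2 fold change was -0.73 (limma adjusted p = 0.19). For Tead2 the deposited value switched between 2 transcripts, of 2115 and 3396 bases, from library to library.

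In the kinase core the response was that of Lats2, the kinase that phosphorylates YAP and TAZ and is itself known as a YAP target. Lats2 (chr14:57689662-57758388, minus strand) measured 26.1, 31 and 28.8 TPM in D0 siControl and 50.6, 51 and 57.8 TPM in D0 siKctd10. At D2 it measured 33.2, 36.6 and 38.7 TPM against 79.6, 52.4 and 58.4 TPM. All 6 siKctd10 libraries were above all 6 siControl libraries. The log2 fold change was 0.87 ± 0.15 at D0 (limma adjusted p = 0.020) and 0.77 ± 0.15 at D2 (limma adjusted p = 0.018), and 19 and 22 of 26 alternatives called it. Of 4 exons of at least 150 bases with coverage throughout at D0, 4 had a higher mean with siKctd10, and 2 separated the groups. The 2109-base last exon rose from a coverage of 43.2 to 51.7 to 90.4 to 111. The 541-base exon rose from 48.8 to 55.7 to 77.4 to 93.5. At D2, 3 of 4 such exons were higher without overlap. The 248-base exon overlapped there and had a lower mean (1.26 in siControl against 1 in siKctd10). Without each transcript's longest exon Lats2 was called on neither day. The D2 siKctd10 library at 79.6 TPM was also the 1 library in which exons of 1301 and 583 bases were covered, at 37.9 and 115.

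The other kinases and their partners did not pass the test for siKctd10. The paralogue Lats1 stood between 28.4 and 45.8 TPM in the 12 libraries, with log2 fold changes of 0.15 (95% interval -0.26 to 0.55) at D0 and 0.07 (-0.33 to 0.48) at D2. The difference between Lats1 and Lats2 in response was not tested. Stk4 (MST1) kept to 50.9 to 61.2 TPM, and its log2 fold change was 0.16 (-0.01 to 0.33) at D0 and 0.02 (-0.15 to 0.19) at D2. Mob1a, the LATS-binding partner with the highest level of all kinase core members, lay between 596 and 678 TPM and had log2 fold changes of 0.04 (-0.10 to 0.18) and 0.06 (-0.08 to 0.20). Mob1b ranged more widely, from 57.6 to 162 TPM over 6 transcripts. Stk3 (MST2) was at 53.9 to 71.5 TPM in 11 libraries and at 120 TPM in D2 siKctd10 replicate 3, where a 211-base exon had a coverage of 717, while its last exon lay between 114 and 136 in all 12. Sav1, the scaffold of MST kinases, was highest in the siKctd10 libraries numbered 3 (555 TPM at D0 and 425 TPM at D2, against 295 to 408 TPM in the other 4). Its log2 fold changes of 0.26 and 0.35 were 0.12 and 0.19 without these 2 libraries.

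Of the upstream inhibitors, the angiomotins Amot and Amotl2, which hold YAP at junctions and actin, rose at D2. Amot (chrX:145446425-145505181, minus strand) was at 37.7, 39.7 and 39.9 TPM in D2 siControl and at 58.5, 57.3 and 60.7 TPM in D2 siKctd10, so the groups were far apart. At D0 the 2 groups overlapped at 53.8 to 66 and 58.7 to 68.7 TPM. The log2 fold change was 0.58 ± 0.10 (limma adjusted p = 0.010) at D2 and 0.09 ± 0.10 (limma adjusted p = 0.71) at D0, and the interaction of day and siRNA was 0.49 (limma adjusted p = 0.19), which does not show that the days differed.

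Amotl2 (chr9:102716672-102733418, plus strand), a second angiomotin and a known YAP target, stood at 34, 40.2 and 36.4 TPM in D0 siControl and at 58.5, 54.1 and 86.8 TPM in D0 siKctd10. The D2 values were 38.4, 35.6 and 38.7 TPM against 57.9, 72.7 and 91.6 TPM. Replicates of siKctd10 differed, with replicate 3 highest on each day, but no siKctd10 library came below a siControl library. Amotl2 rose at D2 (0.94 ± 0.20, limma adjusted p = 0.025) and had 0.80 ± 0.20 at D0 (limma adjusted p = 0.072). A transcript of 4226 bases was listed at 0 in all 6 siControl libraries and at 29.5, 0 and 39.2 TPM in D0 siKctd10 and 0, 38.1 and 39.7 TPM in D2 siKctd10. The 4290-base transcript alone was at 34 to 40.2 TPM in siControl and 27.1 to 57.9 TPM in siKctd10, so its groups overlapped. In that transcript the 1770-base last exon had a coverage of 56.9 to 65.3 in siControl and 39 to 94.3 in siKctd10 at D0, and of 61.9 to 67.1 and 44.4 to 99.6 at D2. Its 796-base second exon was at 18 to 28.7 against 29.6 to 114 at D0 and at 14.5 to 29.5 against 26.7 to 124 at D2. The last exon thus overlapped between the groups on both days and the second exon at D2. Without both siKctd10 libraries numbered 3 the log2 fold change of Amotl2 was 0.60 at D0 (limma adjusted p = 0.061) and 0.77 at D2 (limma adjusted p = 0.019), and 19 of 26 alternatives held the D2 call. Amotl1 did not pass (0.53 and -0.19), with 1 library at 89.7 TPM and 1 at 95.3 TPM and the other 10 between 33.8 and 53.3 TPM.

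Nf2 (merlin, a cortical protein that activates LATS) did not pass the test despite large fold changes: 1.43 at D0 (limma adjusted p = 0.23) and 1.35 at D2 (limma adjusted p = 0.21). The libraries fell into 2 levels, 6 between 23.2 and 31.8 TPM and 6 between 101 and 127 TPM. The high level held all 3 D2 siKctd10 libraries, 2 of 3 D0 siKctd10 libraries and 1 of 3 D2 siControl libraries. The 2429-base last exon followed it (31.2 to 45.4 against 163 to 218), whereas the 673-base first exon ran from 29.3 to 61.4 without such a gap. Ptpn14 also fell into 2 levels, at 4.03 to 14 TPM in 7 libraries and 34.2 to 50.1 TPM in the other 5, and each of the 4 groups held libraries of both (0.43 at D0 and 0.13 at D2 on the log2 scale).

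**Figure D3:**
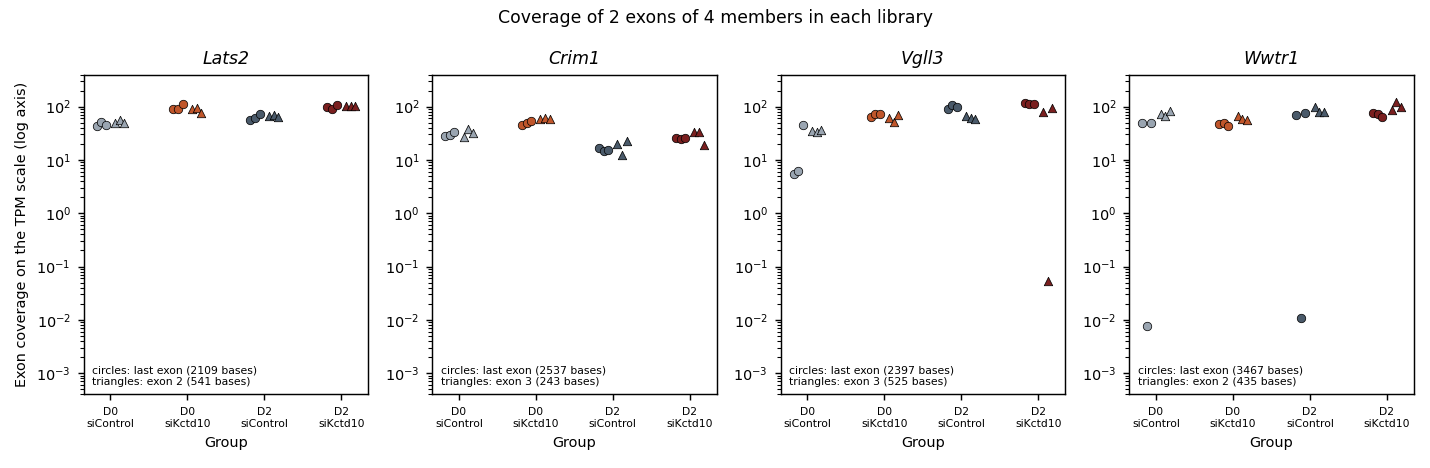
Coverage of the last exon (circles) and of 1 other exon (triangles) of Lats2, Crim1, Vgll3 and Wwtr1 in each library, scaled to TPM, on a log axis, with 3 libraries per group. In Lats2 and Crim1 both exons are higher with siKctd10 on each day on average, in Vgll3 the last exon is at 5.37 and 6.14 in 2 of 3 D0 siControl libraries, and in Wwtr1 it is near 0 in 2 siControl libraries.

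The TEAD cofactors of the Vestigial-like family, which compete with or replace YAP on TEAD factors, had 1 member past the test for siKctd10, Vgll3 at D0. Vgll3 (chr16:65815257-65866368, plus strand) stood at 10.1, 10.8 and 39 TPM in D0 siControl and at 57.3, 61.5 and 65.2 TPM in D0 siKctd10. The groups did not overlap, and siControl replicate 3 lay nearer to the siKctd10 libraries. Its log2 fold change was 1.84 ± 0.40 (limma adjusted p = 0.047), called in 8 of 26 alternatives. In the 2 lowest libraries the 2397-base last exon was at 5.37 and 6.14 against 44.4 in the third, while the 525-base exon before it was alike in the 3 siControl libraries (34.7, 33.7 and 36.3) and higher in the 3 siKctd10 libraries (60.2, 52.4 and 70.5). At D2 both groups were high, at 77.5 to 90.9 and 85.9 to 101 TPM.

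Vgll2, a cofactor enriched in skeletal muscle, was the 1 member whose siKctd10 libraries all lay below siControl at D2: 6.8, 9.45 and 6.5 TPM against 12.5, 13 and 12.2 TPM. Its log2 fold change was -0.68 ± 0.22 and did not pass (limma adjusted p = 0.12). At D0 it was at 4.24 to 7.25 and 3.33 to 5.71 TPM. Vgll4, which restrains YAP at TEAD factors, had 0.39 (limma adjusted p = 0.17) at D0 with non-overlapping groups and 0.28 (limma adjusted p = 0.28) at D2. The LATS inhibitor Ajuba lay at 83.9, 16.9 and 81 TPM in D0 siControl and at 98 to 124 TPM in D0 siKctd10. At D2 it was at 78.3 to 85.1 and 106 to 112 TPM. The siKctd10 groups were above siControl on both days, with log2 fold changes of 1.19 (limma adjusted p = 0.27) and 0.42 (limma adjusted p = 0.69), and 1588 bases of last exon were at 0.0222 in the 1 low library.

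Among the transcriptional targets Ankrd1 (chr19:36111961-36120099, minus strand), a striated muscle ankyrin repeat protein and one of the most used YAP readouts, rose on both days. It measured 472, 483 and 457 TPM in D0 siControl and 852, 819 and 1205 TPM in D0 siKctd10. At D2 it measured 460, 429 and 397 TPM in siControl and 603, 677 and 850 TPM in siKctd10. The groups were separated on both days, and replicate 3 was the highest siKctd10 library each time. The changes were 1.00 ± 0.16 (limma adjusted p = 0.013) and 0.71 ± 0.16 (limma adjusted p = 0.033) on the log2 scale, held in 23 and 14 of 26 alternatives. Ankrd1 was 1 of 7 members with a single transcript in the files, and 1 of 5 among them whose exons overlap no other transcript.

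Crim1 (chr17:78200248-78376592, plus strand), a transmembrane protein that binds bone morphogenetic proteins, changed by a similar ratio on both days from different starting levels. The D0 libraries held 18, 21.1 and 20.8 TPM in siControl and 29.2, 32.4 and 34.2 TPM in siKctd10, and the D2 libraries 8.68, 9.14 and 9.83 TPM and 16.4, 16.3 and 15.8 TPM. D2 siKctd10 cells thus came close to, and stayed below, the D0 siControl level. The log2 fold change was 0.65 ± 0.10 at D0 (limma adjusted p = 0.014) and 0.75 ± 0.10 at D2 (limma adjusted p = 0.0045). All 7 exons of at least 150 bases with coverage throughout at D0, and all 5 at D2, had a higher mean with siKctd10, with log2 ratios of 0.47 to 0.99 and 0.19 to 1.37. Among the siKctd10 calls, Crim1 and Amot at D2 were the most stable, each called in 25 of 26 alternatives.

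Gadd45b, a stress-induced growth arrest protein, was called at D0 with 14.4, 11.3 and 11.3 TPM in siControl and 22.2, 19.1 and 26.2 TPM in siKctd10 (0.81 ± 0.15, limma adjusted p = 0.024), a call held in 17 of 26 alternatives. At D2 the groups stood at 33.2 to 40.8 and 42.9 to 53.4 TPM without overlap (0.41, limma adjusted p = 0.18). Its paralogue Gadd45a was at 20.6 to 27.9 and 24.3 to 25.9 TPM at D0 and at 178 to 202 and 230 to 269 TPM at D2, where it had 0.39 (limma adjusted p = 0.091).

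The next 3 targets passed at D2 only, and the interaction passed for none of them. F3 (tissue factor, the initiator of coagulation) stood at 31, 23.7 and 25.9 TPM in D2 siControl and at 53.7, 41.3 and 40.1 TPM in D2 siKctd10 (0.72 ± 0.16, limma adjusted p = 0.034). At D0 its groups were also apart, at 27.4 to 34.4 and 40.6 to 52.6 TPM (0.58, limma adjusted p = 0.10). Asap1, a regulator of ARF GTPases and the actin cytoskeleton, was at 138, 126 and 125 against 198, 233 and 247 TPM at D2 (0.79 ± 0.19, limma adjusted p = 0.045) and at 157 to 165 against 173 to 323 TPM at D0 (0.51, limma adjusted p = 0.22). F3 and Asap1 thus had non-overlapping groups on both days. Without both siKctd10 libraries numbered 3 Asap1 had 0.26 at D0 and 0.73 at D2. Foxf2, a forkhead transcription factor, was at 8.98, 7.92 and 7.2 against 11.5, 11.5 and 14.6 TPM at D2 (0.58 ± 0.13, limma adjusted p = 0.037), whereas at D0 its groups overlapped at 19.5 to 21 and 17.4 to 21.5 TPM (-0.05). The Foxf2 interaction was 0.63 (limma adjusted p = 0.23). The D2 call was held in 13 of 26 alternatives for F3, 10 for Asap1 and 8 for Foxf2, so more alternatives lost than kept the calls of Asap1 and Foxf2.

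Besides Gadd45a, 4 tested targets did not pass for siKctd10. Axl, a receptor tyrosine kinase, held 69.1 to 73.5 TPM in D0 siControl and 122, 110 and 70.4 TPM in D0 siKctd10, so replicate 3 lay with the controls and replicates 1 and 2 far above them. Without that library Axl was called at D0. At D2 its groups were apart, at 56.7 to 60.6 and 72 to 79.3 TPM (0.34, limma adjusted p = 0.31). Without both siKctd10 libraries numbered 3 Axl was called at D2 too. Nuak2, a kinase related to AMPK, ranged from 2.53 to 42.1 TPM, and its 2168-base last exon from 0.00739 to 55.9. The Nuak2 groups overlapped at D0, at 2.53 to 37.4 and 2.69 to 42.1 TPM (0.75, limma adjusted p = 0.77). They were apart at D2, at 9.91 to 21 and 34.3 to 41.8 TPM (1.32, limma adjusted p = 0.52). Myof (myoferlin, a membrane fusion protein) lay between 30.4 and 166 TPM over 3 transcripts. Rbms3, an RNA-binding protein, was at 22.8 TPM in 1 D0 siKctd10 library and at 6.09 to 7.93 TPM in the other 5 D0 libraries. Together 7 of the 34 members (Wwtr1, Nf2, Vgll3, Ptpn14, Ajuba, Nuak2 and Myof) spread over 3-fold among replicates of a group.

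**Figure D4:**
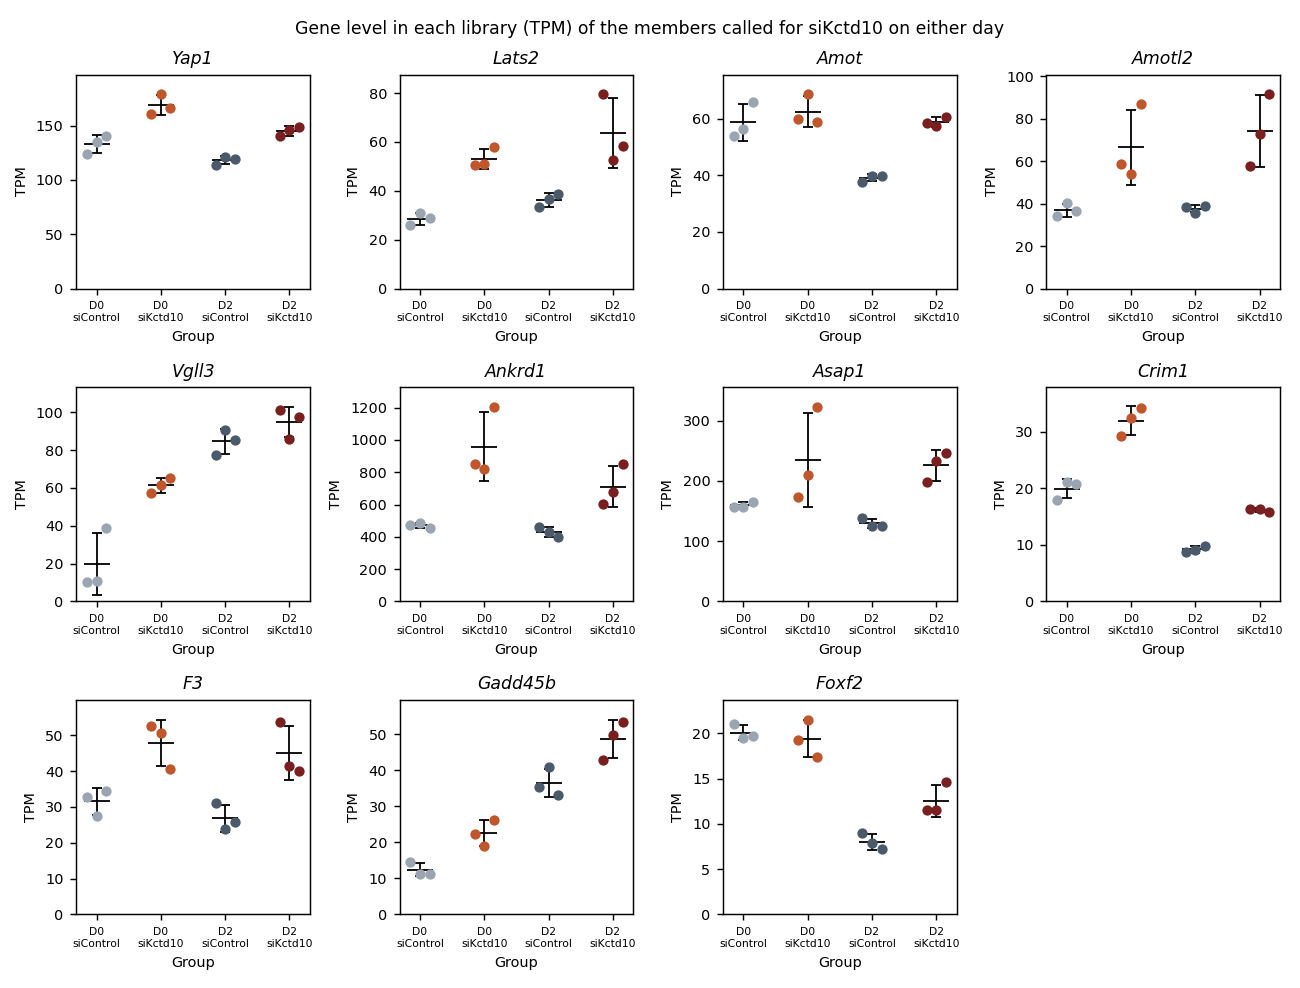
Level in TPM of the 11 members called for siKctd10 on either day, with 1 point per library, the mean as a bar and the SD as error bars (n = 3 per group), each panel from 0. The D0 siControl points of Vgll3 are split between 10.1, 10.8 and 39 TPM, and replicate 3 of siKctd10 is the highest Ankrd1 library on both days.

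For the interaction of day and siRNA, limma called 0 of 33 members and voom called 0, beside 0.742% of all genes, and 4 members (12.1%) had an unadjusted p under 0.05, near the 9.94% of all genes. They were Amot (0.49), Foxf2 (0.63), Vgll3 (-1.68) and Tead4 (-0.50). Without D0 siControl replicate 3, Vgll3 was called.

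Differentiation in siControl cells changed 11 of the 33 members, 7 higher and 4 lower at D2 (35.5% of all genes were called, 21.4% higher and 14.1% lower, against 33.3% of the members). The D2 and D0 cells also differed in serum (2% horse serum against 10% fetal bovine serum), which cannot be told apart from differentiation here. For 11 members every D2 library lay above every D0 library and for 7 below (30.7% and 21.6% of all genes). Gadd45a rose most, from 26.1, 27.9 and 20.6 to 202, 186 and 178 TPM (2.88 ± 0.11, limma adjusted p = 8.42e-08). Gadd45b, its paralogue, rose from 14.4, 11.3 and 11.3 to 35.4, 40.8 and 33.2 TPM (1.49 ± 0.15, limma adjusted p = 4.03e-05). Under quantile normalization 49% of the calls over all genes were higher, against 60.4%. All 3 Vestigial-like cofactors rose too.
Vgll3 went from 10.1, 10.8 and 39 to 77.5, 90.9 and 85.6 TPM (2.30 ± 0.40, limma adjusted p = 0.0014), with the exon drop described above in 2 of the 3 D0 libraries. Vgll2 went from 4.69, 4.24 and 7.25 to 12.5, 13 and 12.2 TPM (1.12 ± 0.22, limma adjusted p = 0.0028), and Vgll4 from 42.5, 50.1 and 57.9 to 84, 78.3 and 98 TPM (0.78 ± 0.13). The groups of all 3 cofactors were separate.

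Rbms3 rose from 6.09, 6.75 and 7.21 to 15, 21.7 and 19 TPM (1.33 ± 0.34, limma adjusted p = 0.011), and Tead2 from 28.1, 20.9 and 29.5 to 66, 34.1 and 67.1 TPM (1.01 ± 0.28, limma adjusted p = 0.017). The falls were those of Foxf2, from 21, 19.5 and 19.7 to 8.98, 7.92 and 7.2 TPM (-1.22 ± 0.13, limma adjusted p = 6.19e-05), and of Crim1, from 18, 21.1 and 20.8 to 8.68, 9.14 and 9.83 TPM (-1.03 ± 0.10, limma adjusted p = 4.03e-05). Amot fell from 53.8, 56.3 and 66 to 37.7, 39.7 and 39.9 TPM (-0.57 ± 0.10, limma adjusted p = 0.0012), and Sav1 from 350, 364 and 418 to 236, 286 and 272 TPM (-0.51 ± 0.17, limma adjusted p = 0.037). No group of these 6 overlapped its counterpart. Ankrd1 and Lats2, in contrast, had -0.14 (95% interval -0.49 to 0.22) and 0.33 (-0.01 to 0.66), and neither passed.

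In siKctd10 cells 7 members were called for differentiation, 4 higher and 3 lower, with 36.4% of all genes called (23.1% higher and 13.3% lower). For 9 members the D2 libraries lay above all D0 libraries and for 4 below them (30.3% and 18.1% of all genes). The rises were Gadd45a (3.24), Gadd45b (1.09), Vgll4 (0.67) and Vgll2 (0.67), and the falls Crim1 (-0.94), Foxf2 (-0.60) and Yap1 (-0.22, 161 to 179 against 140 to 149 TPM). With median-ratio scaling, quantile normalization, FPKM or voom 3 members were higher and 5 to 7 lower, and over all genes 50.4 to 55.4% of the calls were higher, against 63.5%. Without both siKctd10 libraries numbered 3 the calls were 3 higher and 5 lower: Yap1 (-0.24, limma adjusted p = 0.065) and Vgll2 (0.74, limma adjusted p = 0.089) no longer passed, and Sav1 (-0.44), Ankrd1 (-0.39) and Axl (-0.59) did. Amot had -0.08 (95% interval -0.30 to 0.14) there, and its D0 and D2 siKctd10 libraries overlapped. The 2 differentiation contrasts share no library, and the difference between them is the interaction given above.

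**Figure D5:**
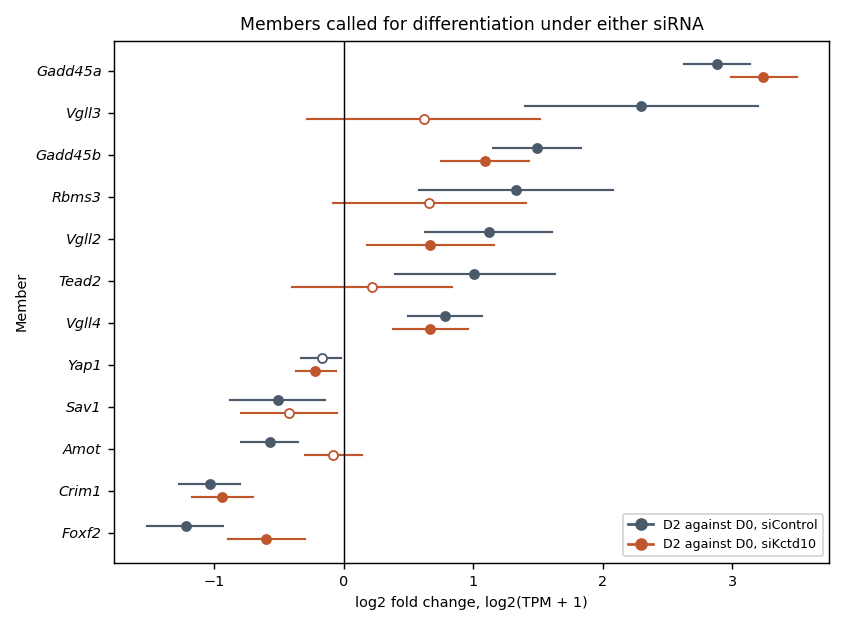
Log2 fold changes of D2 against D0 with 95% confidence intervals from limma, for the 12 members called under either siRNA, with siControl in grey and siKctd10 in orange. Filled points passed the test and open points did not. Gadd45a lies farthest to the right at 2.88 and 3.24, and Amot is at -0.57 in siControl and -0.08 in siKctd10.

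Other genes of the pathway were counted from a list of further regulators and published targets, also chosen with earlier results of these data known. Of 50 tested regulators 1 was higher and 1 lower with siKctd10 at D0, and 4 were higher and 1 lower at D2. These are 4% and 10% of the regulators, beside 2.45% and 4.75% of all genes. Of 24 tested further targets 3 were higher and 0 lower at D0, and 6 were higher and 2 lower at D2, which is 12.5% and 33.3%. Their median log2 fold changes were 0.16 and 0.11 (regulators) and 0.23 and 0.24 (targets).

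At D0 the called genes were the targets Thbs1 (1.79), Ptgs2 (0.72) and Nrp1 (0.47), the adaptor Rassf4 (0.83) and the 14-3-3 gene Ywhah (-0.24). Thbs1, a matrix glycoprotein, stood at 313, 328 and 526 TPM in D0 siControl and at 1250, 1068 and 1683 TPM in D0 siKctd10, and rose also at D2 (1.46), from 829, 793 and 860 to 1814, 3491 and 1858 TPM. No library of 1 treatment reached the other on either day. The other large rises at D2 were Edn1 (1.42), a vasoactive peptide precursor, the collagen gene Col12a1 (1.31), the growth factor gene Nrg1 (1.18), Slit2 (0.80) and Rassf2 (0.80). Stk38l, an NDR kinase related to LATS, had 5.25 at D2: it was listed at 0.065 to 0.277 TPM in D2 siControl and at 36.6 to 49.2 TPM in D2 siKctd10, but at 26.4, 0.0278 and 0.12 TPM in D0 siControl, so its value jumped between replicates as those of Nf2 and Wwtr1 did. Further called genes at D2, named after their values were seen, included Fat4 (0.72), Igfbp3 (0.67) and Wtip (0.54), and lower Nt5e (-0.64) and Ywhaz (-0.33).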

How the data were processed

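The members and gene lists were chosen with earlier results of these data known. Per the file headers, the authors estimated transcripts with StringTie 1.3.3b, whereas HISAT, SAMtools, DESeq2, build mm10 and StringTie 1.1.3 are listed, per the submitters' processing notes, and it is not settled which StringTie release was used. Each deposited transcript carries coverage, FPKM and TPM, per the file headers, and TPM, the main unit, sums to 1000000 in each library. Of 63759 transcripts, 88.0% were matched by coordinates to GENCODE genes (identical introns, otherwise at least 50% overlap) and summed to 25777 genes. Unmatched transcripts held 3.82 to 4.63% of TPM. Gene models that share exons can trade reads in these estimates.

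The 13078 genes with at least 1 TPM in at least 3 libraries were tested on log2(TPM + 1) with limma 3.58.1 (R 4.3.3; trend and robust variances, 4 group means over all 12 libraries, 8 residual degrees of freedom), with Benjamini-Hochberg adjustment over all of them. Fold changes are on that scale and understate low genes. The fit was tested on simulated data with normal noise. These lack the jumps between replicates described for Wwtr1 and Nf2, so the simulation does not cover such genes. Exon coverage, deposited by the authors, was multiplied by the library's ratio of TPM to coverage. Members called for siKctd10 or the interaction, and the 6 largest rises and falls called in siControl differentiation, were given library by library; other pathway genes called for siKctd10 were named up to 6 per day. Promoters and untranslated regions were read from RefSeq (GRCm38.p6) and GENCODE tables of the same assembly; protein sequences were not used here. Alternatives covered the pseudocount, filter, scaling, unit, voom, matching, replicate block, groups fitted, variance model and each library left out. A called gene of the further targets is counted but not reported by name here.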

Additional observations from a re-analysis of the deposited data

Results flagged for a closer look

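Col12a1, a collagen gene counted among the further published targets, responded to siKctd10 more at D2 than at D0: the interaction of day and siRNA was 1.01 on the log2 scale (limma adjusted p = 0.0097 over all genes). It stood at 30.4, 27.4 and 33.7 TPM in D0 siControl, 36.7, 39.6 and 36.8 TPM in D0 siKctd10, 75.1, 89.1 and 85.5 TPM in D2 siControl, and 206, 208 and 206 TPM in D2 siKctd10.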

How the results depend on the processing

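Called members at D0 (6) became 0 with only the groups compared fitted and 2 without both siKctd10 libraries numbered 3, and at D2 (9) became 4 with median-ratio scaling, 5 with FPKM, 5 with voom and 3 with only the groups compared. Leaving out 1 library gave 1 to 4 members at D0, 3 to 10 at D2 and 0 to 1 for the interaction (0). Without each transcript's longest exon, a setting chosen after seeing the data that kept 10780 genes, the members called were 0 at D0, 0 at D2 and 4 for differentiation in siKctd10 (7). All genes called with only the groups compared were 72 at D0 (320) and 260 at D2 (621), and with 1 library left out 118 to 306 and 315 to 682. Without the longest exon they were 53 and 77, 2132 for differentiation in siControl (4641), 2085 in siKctd10 (4756) and 9 for the interaction. The interaction's 97 genes became 62 and 167 with pseudocounts of 0.1 and 5, 155 with FPKM, 63 without both libraries numbered 3, and 52 to 82 with 1 library left out. The cause was not tested, except that fewer libraries or genes entered where some were left out. With the replicate number as a block, 4 members at D0 and 8 at D2 and 42 interaction genes were called; same-numbered libraries correlated at -0.021 to 0.202, highest for the siKctd10 libraries numbered 3, and since not every pair exceeded 0.1 and not every library correlated best with its own number, the numbers were not taken to pair the libraries. The values past the threshold that reversed were Yap1 at D2 without its longest exon (-0.09) and Vgll4 in siKctd10 differentiation with identical introns only (-0.17). Several values that did not pass also changed sign, such as Nuak2 at D2 (1.32, down to -0.95). Libraries of an estimated 12510887 to 18082111 read pairs limit low genes such as Fjx1 and Vgll2.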
